A study of Homo sapiens with 12 samples.

Results

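The genes described here are 45 listed genes of glycolysis and of the response to low oxygen, chosen by symbol, with earlier results of these data known, and measured on 12 arrays. The probe-to-gene table named 24 of the 45 among 14884 measured genes, with 1 probe set per gene, the one with the highest mean over the arrays. The measured members were 9 glycolytic enzymes (HK1, HK2, GPI, TPI1, GAPDH, PGK1, PGAM1, LDHA and LDHB), 1 subunit of a hypoxia-inducible factor (EPAS1) with 2 oxygen sensors (EGLN1 and EGLN3), and 12 hypoxia response genes (BNIP3, BNIP3L, CA12, VEGFA, ADM, ANKRD37, ANGPTL4, NDRG1, DDIT4, KDM3A, MXI1 and ERO1A). The other 21 were not analysed here: PFKL, PFKM, PFKP, ALDOA, ALDOC, ENO1, ENO2, ENO3, PKM, PKLR, PFKFB2, PFKFB3, PFKFB4, PDK1, HIF1A, CA9, P4HA1, P4HA2, INSIG2P1, PPP1R3C and GBE1. The measured members therefore cover glycolysis only in part, and they include neither HIF1A nor pyruvate kinase.

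HepG2 is a long-established human line grown from a tumour of the liver. All 4 groups share a deletion of exon 3 on 1 allele of the β-catenin gene, so that a truncated protein lacking the phosphorylation sites for its turnover is made beside the full-length one. Cells received sißCat-WT (an RNA against the full-length form), sißCat-mut (against the truncated form), sißCat-both (against both forms) or siCtrl (a control RNA), and RNA was taken at 120 h with 3 arrays per group. The design asks what each form contributes to gene expression. The targeted gene was not analysed here, so the knockdowns rest on the labels. The labels do not say whether the triplicates were grown apart, so the p-values take in no more than the variation among these arrays, and that variation may be technical. The line is a single tumour line, and the amount of each form left in each group is unknown here.

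Glycolysis splits glucose into pyruvate in the cytosol. Hexokinases trap glucose in the cell, a chain of isomerases, kinases and mutases follows, and lactate dehydrogenase turns pyruvate into lactate. Hypoxia-inducible factors are pairs of an oxygen-sensitive alpha subunit and the stable partner ARNT. When oxygen is present, the EGLN prolyl hydroxylases mark the alpha subunit for degradation. When it is scarce, the pair binds DNA at a short core, written ACGTG or GCGTG, and raises glycolytic enzymes, VEGFA, BNIP3 and other genes. The alpha subunits are controlled mainly as proteins, so their RNA level is no measure of their activity. β-catenin is a part of cell junctions and the transcriptional effector of Wnt signalling.

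The arrays were comparable within groups, with correlations of 0.994 to 0.997 between replicates across genes, and 0 of 66 pairs held identical values. The medians of all probe sets ran from 4.71 to 4.78 on the log2 scale, and levels at or below them lie near the floor of the array, where changes are compressed. HK1 and LDHB (group means of 3.16 to 3.81) lay below that level, EGLN3 (4.74 to 4.98) lay beside it and CA12 (5.04 to 5.46) just above it, so the sizes of their changes are uncertain. The labelled cell type was checked with 10 measured hepatocyte markers of 13 listed, whose group means ran from 7.36 (TAT) to 13.53 (ALB). Their mean over the list was 11.20 to 11.37 in the sißCat-WT arrays, 12.17 to 12.25 in the sißCat-mut arrays and 12.20 to 12.21 in the sißCat-both arrays, against 11.52 to 11.57 in the siCtrl arrays. Hepatocyte markers thus moved with the groups, and their part in the results was not tested. The 6 measured fibroblast and endothelial markers had group means of 2.97 to 5.51. Of 3 measured leukocyte markers, CD14 lay between 5.47 and 6.17, while CD68 (9.86 to 10.51) and LYZ (11.60 to 12.72) were high in every group, and LYZ fell by 1.13 after sißCat-both against siCtrl (limma adjusted p = 5.94e-07). In bulk RNA, fewer cells that express a gene and less RNA per cell cannot be told apart.

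Most of the measured members were lower after sißCat-both than after siCtrl. Against siCtrl, 17 of 24 fell and 1 rose after sißCat-both (limma, adjusted p under 0.05 over all 14884 genes), where 18.1% of all genes fell, 15.5% rose and 33.6% changed in either direction. Bright genes are called more often. Among the 8930 genes with a mean at or above the 40th percentile 27.6% fell, and of the 20 members among them 17 fell and 1 rose. The arrays of the groups did not overlap for 20 members, and for 43.8% of all genes. The median log2 change of the members was -0.43, against -0.006 over all genes. After sißCat-WT, 4 of 24 fell and 0 rose, where 4.97% of all genes fell, 5.20% rose and 10.2% changed. Groups did not overlap for 10 members, and for 30.3% of all genes. The median of the members was -0.17, against 0.005 over all genes. After sißCat-mut, 6 of 24 fell and 3 rose, where 13.6% fell, 12% rose and 25.6% changed, and the median was -0.09, against 0.011. Groups did not overlap for 14 members, and for 40.7% of all genes. Of the 20 bright members 9 were called after sißCat-mut, where 38.8% of bright genes were, so that count is no result about the members. Of the same 20, 4 fell after sißCat-WT, where 15.4% of bright genes were called and 7.82% fell. The sißCat-WT count was 1 without sißCat-WT replicate 2 and 2 without siCtrl replicate 1 or 2. In those fits 6.16%, 6.81% and 6.38% of all genes were called, against 10.2% with all arrays. The 3 comparisons with siCtrl share its arrays.

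**Figure D1:**
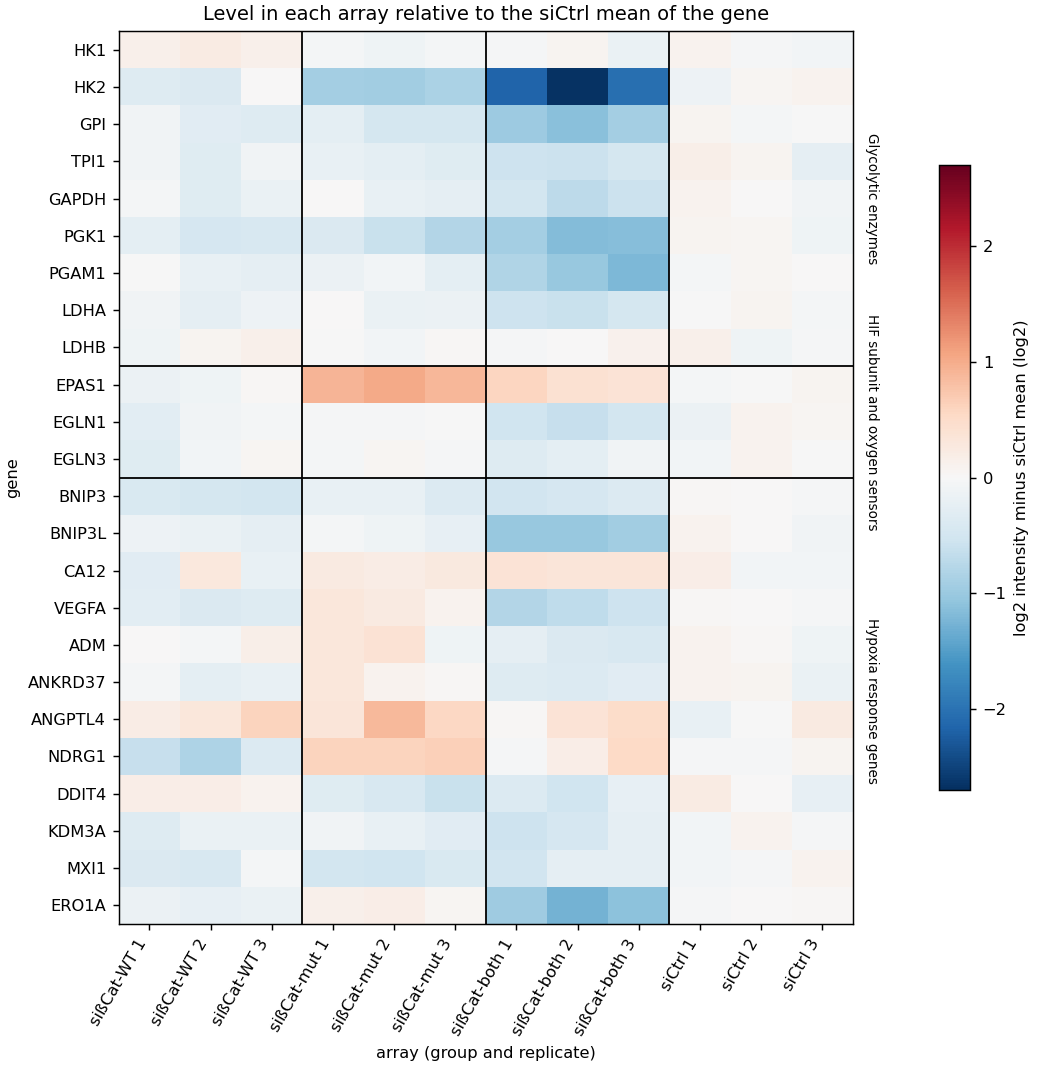
Level of each of the 24 measured genes in each of the 12 arrays, as the log2 intensity minus the siCtrl mean of the gene (colour scale, blue lower and red higher). Rows are genes by role and columns are arrays by group. HK2 is darkest in the 3 sißCat-both arrays (levels of 6.81 to 7.44, against 9.33 to 9.57 in siCtrl), and EPAS1 is red in all sißCat-mut and sißCat-both arrays.

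The glycolytic enzymes moved in 1 direction wherever they passed the test. After sißCat-both, 7 of the 9 measured enzymes fell and 0 rose, and the other 2 were the dim HK1 and LDHB. That is 77.8% of them called, where 33.6% of all genes and 49.4% of bright genes were. The median log2 change was -0.59, against -0.006 over all genes. After sißCat-mut 3 fell (HK2, PGK1 and GPI) and after sißCat-WT 1 fell (PGK1), with 0 rising in either, and medians of -0.16 and -0.17. These shares, 33.3% after sißCat-mut and 11.1% after sißCat-WT, stand beside 25.6% and 10.2% of all genes called. The 9 include the dim HK1 and LDHB, so bright genes are not a like set for these shares. Nothing about the enzymes as a group is read from so few calls.

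HK2, the hexokinase that tumours often use in place of the liver's glucokinase, had the widest range of all members. Its log2 levels were 9.13, 9.08 and 9.49 after sißCat-WT, 8.56, 8.54 and 8.62 after sißCat-mut, and 7.30, 6.81 and 7.44 after sißCat-both, against 9.33, 9.52 and 9.57 after siCtrl. All sißCat-both arrays were below all sißCat-mut arrays, which were in turn below all arrays of sißCat-WT and siCtrl, and those last groups overlapped. HK2 thus fell 4.89-fold after sißCat-both (log2 change -2.29 ± 0.15, standard error with 3 arrays in each group, adjusted p = 8.54e-08 by limma) and 1.87-fold after sißCat-mut (-0.90 ± 0.15, adjusted p = 0.000443). Its log2 change after sißCat-WT was -0.24 ± 0.15 and did not pass (adjusted p = 0.406).

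PGK1 makes the first ATP of the pathway's payoff steps. Its levels were 9.71, 9.52 and 9.54 after sißCat-WT, 9.60, 9.38 and 9.18 after sißCat-mut, and 9.07, 8.81 and 8.84 after sißCat-both, against 10.05, 10.04 and 9.87 after siCtrl. Every knockdown array was below every control array, and those of sißCat-WT and sißCat-mut overlapped each other. PGK1 fell by 1.08 ± 0.11 after sißCat-both (2.11-fold, adjusted p = 4.6e-06), by 0.59 ± 0.11 after sißCat-mut (adjusted p = 0.00114) and by 0.40 ± 0.11 after sißCat-WT (adjusted p = 0.0366). The last call ended without siCtrl replicate 1 or 2, sißCat-WT replicate 2 or 3 or sißCat-mut replicate 2, with adjusted p up to 0.132.

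GPI, which turns glucose 6-phosphate into fructose 6-phosphate, had levels of 11.30, 11.09 and 11.06 after sißCat-WT, 11.13, 10.93 and 10.93 after sißCat-mut, and 10.42, 10.27 and 10.48 after sißCat-both, against 11.48, 11.35 and 11.38 after siCtrl. No knockdown array reached the control arrays. GPI fell 2.02-fold after sißCat-both (-1.01 ± 0.09, adjusted p = 1.46e-06) and 1.33-fold after sißCat-mut (-0.41 ± 0.09, adjusted p = 0.00406), and its change after sißCat-WT was -0.26 ± 0.09 (adjusted p = 0.102). PGAM1, the phosphoglycerate mutase, had levels of 9.66, 9.46 and 9.43 after sißCat-WT, 9.52, 9.60 and 9.41 after sißCat-mut, and 8.85, 8.65 and 8.45 after sißCat-both, against 9.62, 9.72 and 9.68 after siCtrl. Its sißCat-both arrays stood clear below all others. PGAM1 fell 2.03-fold after sißCat-both (-1.02 ± 0.10, adjusted p = 3.68e-06), and its changes after each single knockdown were -0.16 ± 0.10 (adjusted p = 0.435 for sißCat-WT and 0.303 for sißCat-mut).

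GAPDH and LDHA fell after sißCat-both and passed in neither single knockdown. GAPDH, which oxidises glyceraldehyde 3-phosphate and is often used as a loading control, had levels of 8.09, 7.82 and 7.96 after sißCat-WT, 8.16, 7.95 and 7.90 after sißCat-mut, and 7.64, 7.43 and 7.56 after sißCat-both, against 8.24, 8.14 and 8.04 after siCtrl. The sißCat-both arrays were below all the others. GAPDH fell 1.51-fold after sißCat-both (-0.59 ± 0.10, adjusted p = 0.000268), and this direction held under renewed quantile normalization and median centring. LDHA, the lactate dehydrogenase subunit of lactate-making tissues, had levels of 7.81, 7.67 and 7.78 after sißCat-WT, 7.92, 7.73 and 7.75 after sißCat-mut, and 7.35, 7.30 and 7.44 after sißCat-both, against 7.89, 7.99 and 7.86 after siCtrl. It too was lowest in all 3 sißCat-both arrays, by 1.46-fold against siCtrl (-0.55 ± 0.08, adjusted p = 7.87e-05). The triose phosphate isomerase TPI1 fell by 0.53 ± 0.10 after sißCat-both (adjusted p = 0.00104), and its changes after sißCat-WT and sißCat-mut were -0.17 and -0.26 (adjusted p = 0.39 and 0.0783).

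HK1, the hexokinase of most tissues, stayed near the array floor, at 3.78, 3.86 and 3.78 after sißCat-WT, 3.58, 3.53 and 3.59 after sißCat-mut, and 3.60, 3.72 and 3.47 after sißCat-both, against 3.73, 3.61 and 3.57 after siCtrl. Its changes against siCtrl lay between -0.07 and 0.17, with adjusted p from 0.232 to 0.769. LDHB, the lactate dehydrogenase subunit of oxidative tissues, had group means of 3.16 to 3.21, and none of its changes against siCtrl passed (adjusted p from 0.827 to 0.922). Several of these enzymes have pseudogenes that resemble the working copy, so that probes may share signal. The RefSeq gene table lists 65 pseudogenes named after GAPDH, 13 after PGAM1, 6 after LDHA, 4 after TPI1, 2 after PGK1 and 1 after HK2, and 46 after BNIP3, so these values are uncertain for the single gene.

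**Figure D2:**
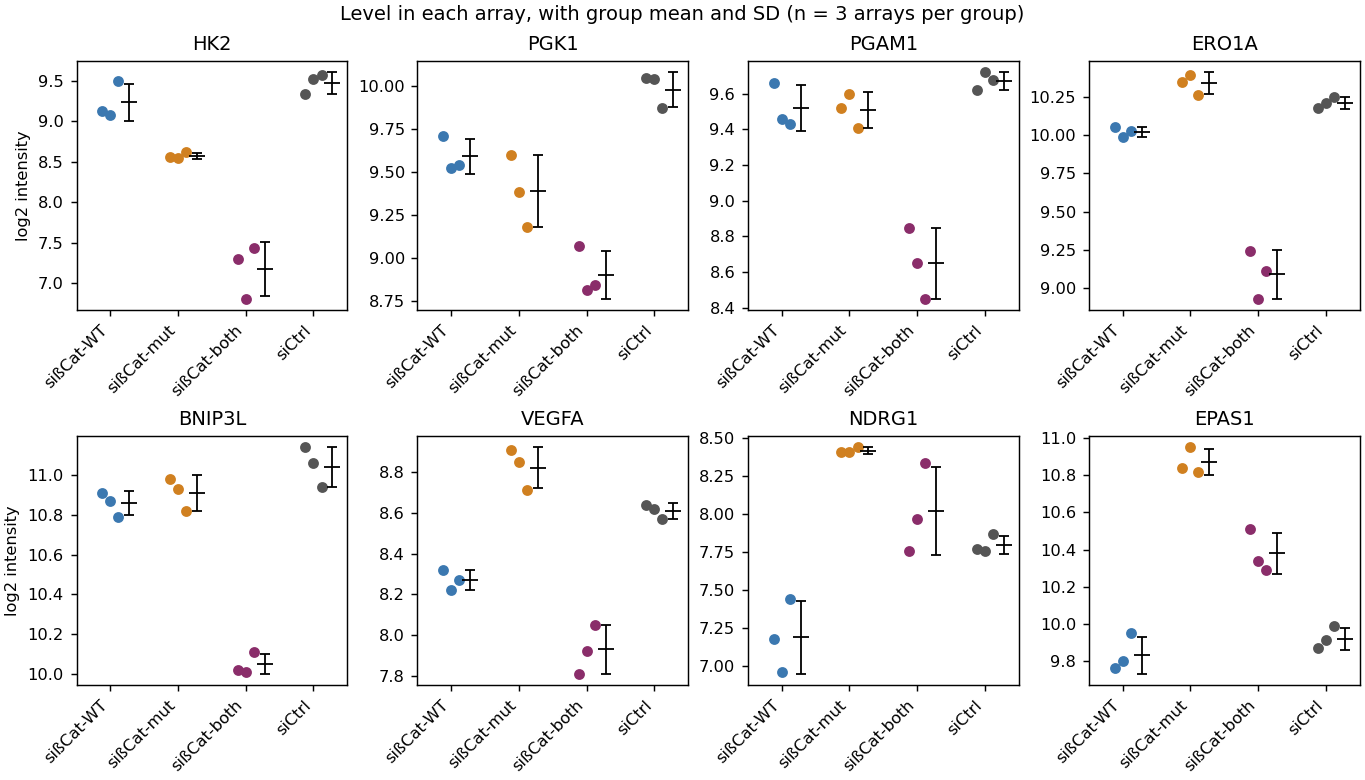
Log2 intensity in each array (points) with the group mean and SD (bars, n = 3 arrays per group) for 8 genes. Each panel has its own vertical scale. HK2, PGK1, PGAM1, ERO1A, BNIP3L and VEGFA are lowest in the sißCat-both arrays, NDRG1 is lowest after sißCat-WT, and EPAS1 is highest after sißCat-mut.

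The starts of these genes were searched for the core that hypoxia-inducible factors bind. RefSeq windows on GRCh38.p14 were at hand for 21 of the 24 measured members (33 windows, since some genes have several starts), and were not at hand for BNIP3L, NDRG1 and VEGFA. Each window was cut to the 250 bases before the start. The core ACGTG, on either strand, was found in 14 of 33 member windows (42.4%) and in 18.5% of all 35116 windows. The core GCGTG, on either strand, was found in 16 member windows (48.5%) and in 32.2% of all. The palindrome CACGTG, which MYC and related factors bind and which holds ACGTG on both strands, was found in 5 member windows (15.2%) and in 6.3% of all. These are matches of letters and no evidence of binding. The members were listed as genes of glycolysis and the hypoxia response, which factors binding this core are known to raise. Their higher shares are therefore no independent result. Windows of the same gene are not independent either. The 6 windows printed here were picked after the values were seen and are those of 3 genes that fell strongly after sißCat-both and hold ACGTG (HK2, PGK1 and ERO1A), of LDHA with the most places, of PGAM1 that fell by a like amount with neither ACGTG nor GCGTG, and of EPAS1 that rose, with no ACGTG and 1 GCGTG. Capitals mark ACGTG or its reverse complement, and each is written 5′ to 3′ on the strand of the gene.
HK2, chr2:74833877-74834126, plus strand: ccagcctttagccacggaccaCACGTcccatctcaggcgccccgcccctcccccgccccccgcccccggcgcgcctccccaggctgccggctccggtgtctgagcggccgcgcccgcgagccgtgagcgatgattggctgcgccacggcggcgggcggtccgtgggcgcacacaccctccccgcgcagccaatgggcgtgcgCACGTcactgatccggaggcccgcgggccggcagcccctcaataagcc
PGK1, chrX:78103998-78104247, plus strand: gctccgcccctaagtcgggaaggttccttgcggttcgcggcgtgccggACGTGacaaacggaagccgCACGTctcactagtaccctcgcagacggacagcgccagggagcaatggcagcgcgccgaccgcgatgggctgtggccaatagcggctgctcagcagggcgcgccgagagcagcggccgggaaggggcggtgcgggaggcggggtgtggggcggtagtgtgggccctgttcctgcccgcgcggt
ERO1A, chr14:52695559-52695808, minus strand: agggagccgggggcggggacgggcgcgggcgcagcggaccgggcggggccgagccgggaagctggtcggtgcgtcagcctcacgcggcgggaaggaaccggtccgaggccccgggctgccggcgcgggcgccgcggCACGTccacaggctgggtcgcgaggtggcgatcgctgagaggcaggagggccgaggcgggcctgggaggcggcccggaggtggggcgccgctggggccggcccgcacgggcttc
LDHA, chr11:18394313-18394562, plus strand: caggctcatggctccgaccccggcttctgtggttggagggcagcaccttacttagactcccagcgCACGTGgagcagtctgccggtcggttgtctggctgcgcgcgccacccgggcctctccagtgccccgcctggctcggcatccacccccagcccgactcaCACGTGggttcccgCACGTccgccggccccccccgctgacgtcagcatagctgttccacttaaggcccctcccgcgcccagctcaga
PGAM1, chr10:97427568-97427817, plus strand: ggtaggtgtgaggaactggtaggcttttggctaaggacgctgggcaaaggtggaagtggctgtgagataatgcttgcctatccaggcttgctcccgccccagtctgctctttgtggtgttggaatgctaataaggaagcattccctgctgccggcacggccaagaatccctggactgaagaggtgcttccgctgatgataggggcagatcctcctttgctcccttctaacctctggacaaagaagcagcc
EPAS1, chr2:46297157-46297406, plus strand: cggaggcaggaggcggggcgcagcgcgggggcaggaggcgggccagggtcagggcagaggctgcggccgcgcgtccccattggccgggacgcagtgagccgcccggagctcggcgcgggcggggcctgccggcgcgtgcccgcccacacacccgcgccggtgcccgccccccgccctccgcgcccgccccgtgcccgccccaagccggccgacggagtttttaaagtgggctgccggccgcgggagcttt
The window of LDHA held 3 places, 2 of them within CACGTG, those of HK2 and PGK1 held 2 each and that of ERO1A held 1. HK2 has a second window, further along the gene, with 2 places, both within CACGTG. GAPDH, BNIP3 and ANKRD37 also held CACGTG once each, with a second ACGTG in ANKRD37, and GPI, DDIT4, EGLN1 and ANGPTL4 and 1 window each of TPI1 and MXI1 held ACGTG once. PGAM1 and PGK1 fell by similar amounts after sißCat-both (-1.02 and -1.08) with 0 and 2 ACGTG places in these windows. Only the 250 bases before each start were searched, and any tie between such places and the changes was not tested.

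EPAS1, which encodes the alpha subunit HIF-2α, was the member that rose after sißCat-both, and it rose more after sißCat-mut. Its levels were 9.76, 9.80 and 9.95 after sißCat-WT, 10.84, 10.95 and 10.82 after sißCat-mut, and 10.51, 10.34 and 10.29 after sißCat-both, against 9.87, 9.91 and 9.99 after siCtrl. The sißCat-mut arrays were above those of sißCat-both, which were above all arrays of sißCat-WT and siCtrl, and those last groups overlapped. EPAS1 rose 1.93-fold after sißCat-mut (0.95 ± 0.08, adjusted p = 1.94e-06) and 1.37-fold after sißCat-both (0.46 ± 0.08, adjusted p = 0.00055), with a change of -0.09 ± 0.08 after sißCat-WT (adjusted p = 0.623). EGLN1, the main oxygen-sensing hydroxylase, fell by 0.55 ± 0.08 after sißCat-both (adjusted p = 0.000157), and its changes after sißCat-WT and sißCat-mut were -0.15 and -0.03 (adjusted p = 0.334 and 0.861). EGLN3, a hydroxylase that is itself raised by hypoxia, changed by -0.11, -0.02 and -0.24 after sißCat-WT, sißCat-mut and sißCat-both, and none passed (adjusted p = 0.594, 0.939 and 0.0781).

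Of the 12 measured hypoxia response genes, most fell after sißCat-both and a few moved in either direction after the single knockdowns. After sißCat-both 9 fell and 0 rose, with a median of -0.37, where 18.1% of all genes and 27.6% of bright genes fell. After sißCat-WT 3 fell (NDRG1, BNIP3 and VEGFA) and 0 rose, with a median of -0.19, and after sißCat-mut 3 fell (MXI1, DDIT4 and BNIP3) and 2 rose (NDRG1 and ANGPTL4), with a median of 0.13. The shares called in the single knockdowns, 25% after sißCat-WT and 41.7% after sißCat-mut, stand beside 15.4% and 38.8% of bright genes, and the sißCat-mut share is near that background.

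ERO1A, an oxidase that helps form disulfide bonds in the endoplasmic reticulum, had levels of 10.05, 9.99 and 10.03 after sißCat-WT, 10.35, 10.39 and 10.26 after sißCat-mut, and 9.24, 8.93 and 9.11 after sißCat-both, against 10.18, 10.21 and 10.25 after siCtrl. No group overlapped another, and the gap to the sißCat-both arrays was by far the widest. ERO1A fell 2.18-fold after sißCat-both (-1.12 ± 0.08, adjusted p = 2.43e-07), while its changes of -0.19 ± 0.08 after sißCat-WT and 0.12 ± 0.08 after sißCat-mut did not pass (adjusted p = 0.179 and 0.329).

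BNIP3L and BNIP3 are related receptors for the removal of mitochondria by autophagy. BNIP3L had levels of 10.91, 10.87 and 10.79 after sißCat-WT, 10.98, 10.93 and 10.82 after sißCat-mut, and 10.02, 10.01 and 10.11 after sißCat-both, against 11.14, 11.06 and 10.94 after siCtrl. Its sißCat-both arrays alone were clear of the rest, and it fell 1.99-fold there (-0.99 ± 0.08, adjusted p = 4.32e-07), with changes of -0.19 and -0.14 after sißCat-WT and sißCat-mut (adjusted p = 0.165 and 0.248). BNIP3 had levels of 11.36, 11.31 and 11.28 after sißCat-WT, 11.59, 11.58 and 11.42 after sißCat-mut, and 11.27, 11.33 and 11.42 after sißCat-both, against 11.81, 11.80 and 11.75 after siCtrl. All knockdown arrays were below all control arrays. BNIP3 fell by 0.47 ± 0.07 after sißCat-WT (adjusted p = 0.000989), by 0.25 ± 0.07 after sißCat-mut (adjusted p = 0.0194) and by 0.44 ± 0.07 after sißCat-both (adjusted p = 0.000273). The sißCat-mut call ended under renewed quantile normalization (log2 change -0.14, adjusted p = 0.209) and without siCtrl replicate 1 or 2 or sißCat-mut replicate 3.

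VEGFA and NDRG1 both fell after sißCat-WT and were both higher after sißCat-mut than after sißCat-WT. VEGFA, the growth factor of blood vessels, had levels of 8.32, 8.22 and 8.27 after sißCat-WT, 8.91, 8.85 and 8.71 after sißCat-mut, and 7.81, 7.92 and 8.05 after sißCat-both, against 8.64, 8.62 and 8.57 after siCtrl. The 4 groups did not overlap, in the order sißCat-mut, siCtrl, sißCat-WT and sißCat-both from high to low. VEGFA fell by 0.69 ± 0.08 after sißCat-both (1.61-fold, adjusted p = 1.6e-05) and by 0.34 ± 0.08 after sißCat-WT (adjusted p = 0.0147), and its change of 0.21 ± 0.08 after sißCat-mut did not pass (adjusted p = 0.0706). The sißCat-WT call ended without siCtrl replicate 1 or 2 or sißCat-WT replicate 2 (adjusted p up to 0.0661), and the sißCat-mut change passed under 5 of the alternatives, with adjusted p from 0.0324.

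NDRG1, a stress-responsive gene raised by hypoxia, had levels of 7.18, 6.96 and 7.44 after sißCat-WT, 8.41, 8.41 and 8.44 after sißCat-mut, and 7.76, 7.97 and 8.34 after sißCat-both, against 7.77, 7.76 and 7.87 after siCtrl. The sißCat-WT arrays were below and the sißCat-mut arrays above all others, and the sißCat-both arrays overlapped those of siCtrl. NDRG1 fell by 0.61 ± 0.14 after sißCat-WT (adjusted p = 0.0112) and rose by 0.62 ± 0.14 after sißCat-mut (adjusted p = 0.00373), with a change of 0.22 ± 0.14 after sißCat-both (adjusted p = 0.251). Without sißCat-WT replicate 2 its fall did not pass (adjusted p = 0.0599).

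ANGPTL4, an inhibitor of lipoprotein lipase, had levels of 6.60, 6.72 and 7.01 after sißCat-WT, 6.73, 7.29 and 6.96 after sißCat-mut, and 6.44, 6.77 and 6.91 after sißCat-both, against 6.20, 6.39 and 6.65 after siCtrl. Only the sißCat-mut arrays were all above the control arrays, and the gene rose there by 0.58 ± 0.16 (adjusted p = 0.0182). That call ended without siCtrl replicate 1 or 2 or sißCat-mut replicate 2 (adjusted p up to 0.0906). DDIT4, an inhibitor of the growth kinase mTORC1, had levels of 9.76, 9.75 and 9.67 after sißCat-WT, 9.25, 9.15 and 8.98 after sißCat-mut, and 9.21, 9.04 and 9.35 after sißCat-both, against 9.80, 9.58 and 9.35 after siCtrl. The sißCat-mut arrays were below all control arrays, and the highest sißCat-both array was beside the lowest control array. DDIT4 fell by 0.45 ± 0.11 after sißCat-mut (adjusted p = 0.00926) and by 0.38 ± 0.11 after sißCat-both (adjusted p = 0.0197). The sißCat-both call ended without siCtrl replicate 1 or 2 or sißCat-both replicate 2 and in a fit restricted to these 2 groups (adjusted p up to 0.101).

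MXI1, an antagonist of MYC, had levels of 6.42, 6.36 and 6.74 after sißCat-WT, 6.31, 6.27 and 6.39 after sißCat-mut, and 6.29, 6.56 and 6.56 after sißCat-both, against 6.72, 6.77 and 6.90 after siCtrl. The sißCat-mut and sißCat-both arrays were below all control arrays. MXI1 fell by 0.47 ± 0.11 after sißCat-mut (adjusted p = 0.00445) and by 0.33 ± 0.11 after sißCat-both (adjusted p = 0.0305), where the call ended under several alternatives, with adjusted p up to 0.146 when the first arrays of sißCat-mut and sißCat-both were left out. A second probe set of MXI1 had group means of 5.20, 5.37 and 5.37 after sißCat-WT, sißCat-mut and sißCat-both, against 5.47 after siCtrl, and with the mean of both the sißCat-both change was -0.21 and did not pass. Of the members left, the histone demethylase KDM3A fell by 0.41 ± 0.09 after sißCat-both (adjusted p = 0.00314), the peptide hormone ADM by 0.36 ± 0.12 (adjusted p = 0.0343) and ANKRD37 by 0.34 ± 0.09 (adjusted p = 0.0118). The ADM call ended without siCtrl replicate 1 or 2 or sißCat-both replicate 2 or 3, and the ANKRD37 call without siCtrl replicate 1 or 2 (adjusted p up to 0.117 and 0.0537). CA12, a carbonic anhydrase, changed by 0.33 ± 0.13 after sißCat-both and did not pass (adjusted p = 0.0595).

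**Figure D3:**
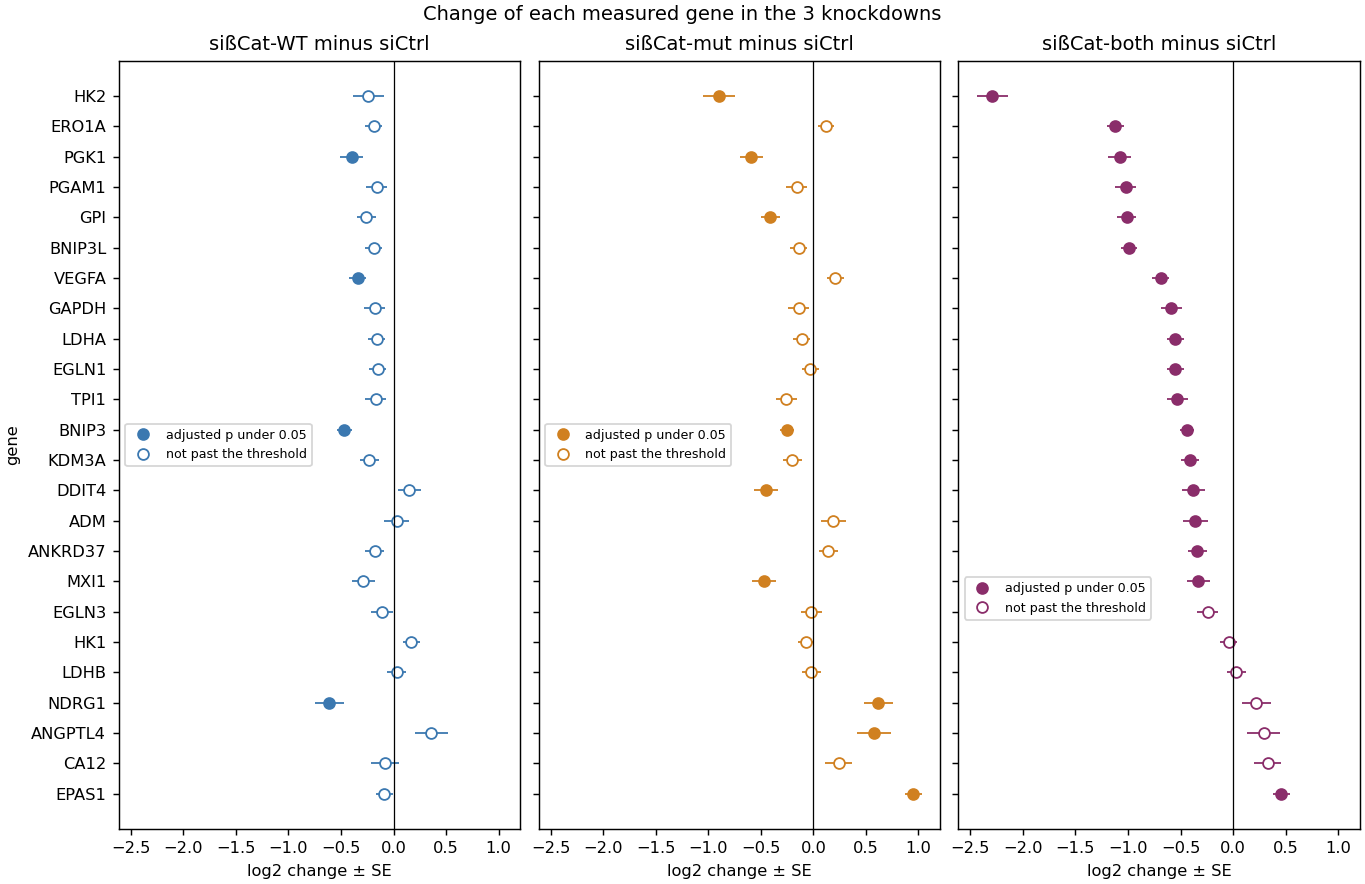
Log2 change ± SE (limma, n = 3 arrays per group) of each of the 24 measured genes after each knockdown, against siCtrl. Filled points passed an adjusted p under 0.05, and genes are ordered by the change after sißCat-both. The sißCat-both panel has 17 filled points below 0 and 1 above it (EPAS1), and NDRG1 is on opposite sides after sißCat-WT and sißCat-mut.

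The single knockdowns were also set against each other, which needs no control array for the difference. After sißCat-mut against sißCat-WT, 6 members were higher and 3 lower, where 14% of all genes were higher, 17.0% lower and 31.0% called in either direction. The members' share (37.5%) was near the share of all genes, and of the 20 bright members 8 were called, where 46.4% of bright genes were, so the count is no result about the members. Groups did not overlap for 10 members, and for 43.2% of all genes. NDRG1 was 2.34-fold higher after sißCat-mut (1.23 ± 0.14, adjusted p = 1.04e-05), EPAS1 2.06-fold (1.04 ± 0.08, adjusted p = 4.66e-07) and VEGFA 1.47-fold (0.56 ± 0.08, adjusted p = 0.000109), and ERO1A was 1.24-fold higher (0.32 ± 0.08, adjusted p = 0.0084). ANKRD37 and BNIP3 were higher by 0.32 and 0.21 (adjusted p = 0.0185 and 0.0386). HK2 and DDIT4 were lower, by -0.66 ± 0.15 and -0.60 ± 0.11 (adjusted p = 0.0032 and 0.00101), and HK1, near the floor, by -0.24 ± 0.08 (adjusted p = 0.0312). The calls of BNIP3, ANKRD37 and HK1 were the fragile ones and ended when sißCat-WT replicate 2 or 3 or sißCat-mut replicate 1 was left out, and the BNIP3 and HK1 calls under other omissions too. The BNIP3 call also ended with arrays centred on the median and in a fit of these 2 groups alone, and the HK1 call with a trended prior (for BNIP3, ANKRD37 and HK1, adjusted p up to 0.129, 0.0985 and 0.105). The remaining glycolytic enzymes differed by -0.20 to 0.05 between these groups, and none passed (adjusted p from 0.211 to 0.984).

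Knockdown of both forms was then compared with each single knockdown. Against sißCat-mut, 13 of 24 members were lower after sißCat-both and 0 were higher, where 11.6% of all genes were lower, 10.6% higher and 22.2% called. Among bright genes 17.2% were lower. Groups did not overlap for 18 members, and for 33.6% of all genes. HK2 was 2.62-fold lower (-1.39 ± 0.15, adjusted p = 1.8e-05), ERO1A 2.37-fold (-1.24 ± 0.08, adjusted p = 6.92e-07), VEGFA 1.86-fold (-0.90 ± 0.08, adjusted p = 5.23e-06), PGAM1 1.82-fold and BNIP3L 1.81-fold (adjusted p = 4.52e-05 and 5.5e-06). EPAS1 was lower too (-0.49 ± 0.08, adjusted p = 0.000664). Against sißCat-WT, 13 members were lower after sißCat-both and 3 higher, where 20.1% of all genes were lower, 16.1% higher and 36.2% called. Of the 20 bright members 13 were lower and 2 higher, where 30.0% of bright genes were lower, 22.7% higher and 52.8% called, and groups did not overlap for 18 members, against 44.3% of all genes. The lower ones were led by HK2 (-2.05 ± 0.15, adjusted p = 1.43e-07), ERO1A (-0.93 ± 0.08, adjusted p = 8.18e-07) and PGAM1 (-0.87 ± 0.10, adjusted p = 1.2e-05), and the higher ones were NDRG1 (0.83 ± 0.14), EPAS1 (0.55 ± 0.08) and CA12 (0.42 ± 0.13), with adjusted p = 0.000234, 0.000107 and 0.0186. The CA12 call ended with array weights and without sißCat-WT replicate 1 or 3 or the first arrays of sißCat-mut and sißCat-both (adjusted p up to 0.0967).

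The sum of the single knockdowns' log2 changes was set against the change after sißCat-both, in 1 contrast over all 4 groups. For 7 of 24 members the level after sißCat-both was lower than that sum, and for 0 it was higher, where 8.79% of all genes were called lower, 7.60% higher and 16.4% in either direction. Among bright genes 13.1% were called lower. The count was 12 without dim genes, where 30.0% of the genes tested were called. It was 11 with the replicate number as a block, where 17.5% of all genes were called. BNIP3 (0.28) and MXI1 (0.44) were then called higher without dim genes and MXI1 with the block, so the calls were not all in 1 direction there. The departure was -1.15 ± 0.21 for HK2 (adjusted p = 0.00193), -1.05 ± 0.11 for ERO1A (adjusted p = 4.99e-05), -0.71 ± 0.14 for PGAM1 (adjusted p = 0.00417), -0.67 ± 0.11 for BNIP3L (adjusted p = 0.00092) and -0.56 ± 0.11 for VEGFA (adjusted p = 0.00433). It was -0.59 ± 0.17 for ADM and -0.41 ± 0.12 for EPAS1 (adjusted p = 0.0328 and 0.0284), calls that ended when single arrays of any group were left out (adjusted p up to 0.0812 and 0.0728), ADM's without sißCat-mut replicate 1 or 2, sißCat-both replicate 2 or 3, sißCat-WT replicate 1 or 3 or siCtrl replicate 2 or 3, and that of EPAS1 without sißCat-mut replicate 2, sißCat-both replicate 2 or 3, sißCat-WT replicate 3 or siCtrl replicate 1 or 2. For PGK1 the departure was -0.09 ± 0.16 (adjusted p = 0.779) and for TPI1 -0.09 ± 0.14 (adjusted p = 0.748). How far each RNA lowered each form of β-catenin is not known here, so the contrast compares levels only.

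**Figure D4:**
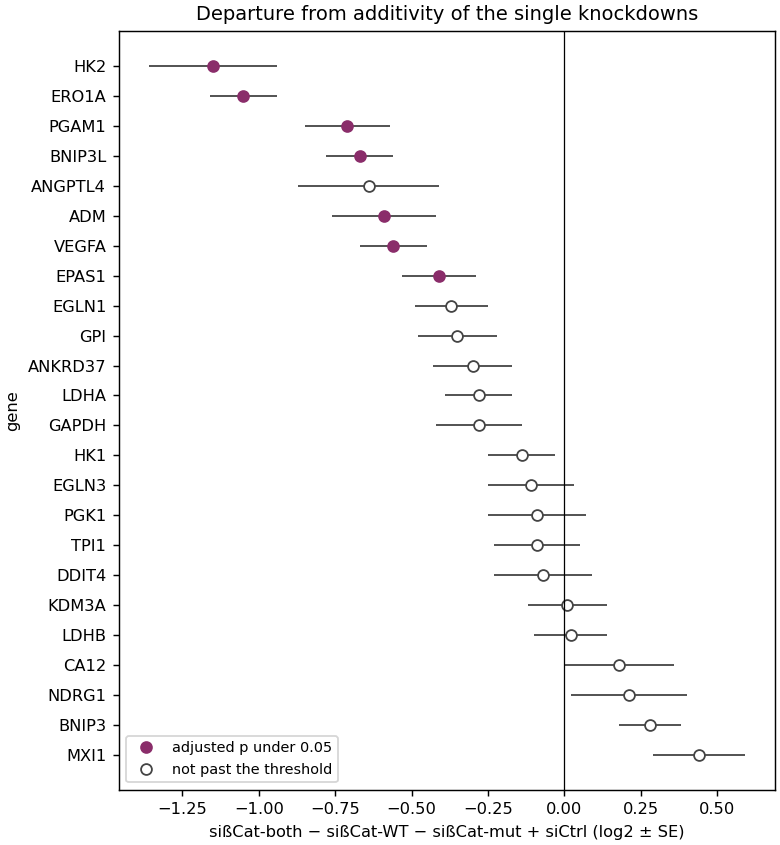
Departure from additivity (level after sißCat-both minus sißCat-WT minus sißCat-mut plus siCtrl, log2 ± SE, limma, n = 3 arrays per group) of each measured gene. Filled points passed an adjusted p under 0.05. All 7 filled points lie below 0, though BNIP3 and MXI1 passed above 0 without dim genes, and range from -0.41 (EPAS1) to -1.15 (HK2).

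Other genes of the same pathways came from lists written with earlier results of these data known. Of 22 measured further hypoxia-induced genes (37 listed), 9 fell and 2 rose after sißCat-both, with LOX, a collagen cross-linker, at -1.61 ± 0.12, the secreted STC2 at -1.30 ± 0.08 and INSIG2, a brake on sterol synthesis, at -1.23 ± 0.14 (adjusted p = 2.39e-07, 8.34e-08 and 1.47e-05). The median was -0.23. The share called, 50%, was near that of bright genes (49.4%), so the count is no result about the list. After sißCat-WT 3 of the 22 fell and 0 rose, led by the erythropoietin gene EPO at -1.11 ± 0.13 and LOX at -1.02 ± 0.12 (adjusted p = 0.000163 and 0.000125). The share called after sißCat-WT, 13.6%, stands beside 10.2% of all genes and 15.4% of bright genes, and is not read as a result either. After sißCat-mut 7 fell and 3 rose (45.5% called, where 38.8% of bright genes were), led by EPO at 1.33 ± 0.13 and STC2 at -0.86 ± 0.08 (adjusted p = 7.32e-06 and 5.35e-06). EPO was 2.44 ± 0.13 higher after sißCat-mut than after sißCat-WT (adjusted p = 1.57e-08), the widest gap between these groups in the list and in the same direction as NDRG1 and VEGFA. Of 9 measured regulators of hypoxia-inducible factors (18 listed), 33.3% were called after sißCat-both and as many after sißCat-mut. These shares stand beside 33.6% and 25.6% of all genes called. The 9 include the dim ARNT2 and VHLL, so bright genes are not a like set for these shares. Nothing about the regulators as a group is read from so few calls. After sißCat-both 3 rose and 0 fell: ARNT, the partner of EPAS1, at 0.92 ± 0.07, the co-activator EP300 at 0.46 ± 0.08 and the ubiquitin ligase SIAH1 at 0.27 ± 0.08 (adjusted p = 2.86e-07, 0.000471 and 0.0157). After sißCat-mut 1 rose (ARNT, 0.34 ± 0.07) and 2 fell, led by the ubiquitin ligase SIAH2 at -0.78 ± 0.08 (adjusted p = 0.00219 and 1.23e-05), and after sißCat-WT none of the 9 passed limma's test at an adjusted p under 0.05, and 1 had an unadjusted p under 0.05.

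Genes of pathways that branch from glycolysis were called in both directions. Their counts stand beside 10.2%, 25.6% and 33.6% of all genes called after sißCat-WT, sißCat-mut and sißCat-both, and 15.4%, 38.8% and 49.4% of bright genes. Of 11 measured pentose phosphate genes (12 listed), 6 fell and 1 rose after sißCat-both, 5 fell and 1 rose after sißCat-mut, and 2 fell and 1 rose after sißCat-WT (63.6%, 54.5% and 27.3% called). The transketolase TKT changed by -1.12 ± 0.09 after sißCat-both and -0.73 ± 0.09 after sißCat-mut (adjusted p = 8.09e-07 and 6.14e-05), and the isomerase RPIA by -1.08 ± 0.09 and -1.28 ± 0.09 (adjusted p = 7.08e-07 and 2.92e-07). Of 7 measured genes of gluconeogenesis and hexose entry (18 listed), 5 fell and 0 rose after sißCat-WT, 4 rose and 0 fell after sißCat-mut, and 3 rose and 0 fell after sißCat-both (71.4%, 57.1% and 42.9% called, the last under the share of bright genes). PCK1, which commits oxaloacetate to glucose synthesis, rose by 1.57 ± 0.12 after sißCat-mut and 1.36 ± 0.12 after sißCat-both (adjusted p = 9.06e-07 and 1.59e-06). Its siCtrl mean of 4.81 lay beside the array floor, so the size of those changes is uncertain. GPD1 had the largest change of this list after sißCat-both, at 1.71 ± 0.09 (limma adjusted p = 2.13e-08). Its changes were 1.06 ± 0.09 after sißCat-mut and -0.70 ± 0.09 after sißCat-WT (adjusted p = 2.16e-06 and 0.00034). The fructose kinase KHK changed by -0.81 ± 0.12 after sißCat-WT and 0.53 ± 0.12 after sißCat-both (adjusted p = 0.000887 and 0.00389). Of 13 measured genes of pyruvate oxidation and the citrate cycle (29 listed), 5 fell and 1 rose after sißCat-WT, 4 rose and 1 fell after sißCat-mut, and 4 rose and 4 fell after sißCat-both (46.2%, 38.5% and 61.5% called, the share after sißCat-mut being near the background). The mitochondrial pyruvate carrier subunit MPC2 changed by -0.99 ± 0.08, 0.66 ± 0.08 and 0.68 ± 0.08 after sißCat-WT, sißCat-mut and sißCat-both (adjusted p = 1.36e-05, 5.89e-05 and 2.6e-05), and its partner MPC1 rose by 1.15 ± 0.08 after sißCat-mut (adjusted p = 5.52e-07). Of 8 measured glycogen genes (21 listed), 5 fell and 2 rose after sißCat-both, 2 fell and 1 rose after sißCat-mut, and 3 fell and 0 rose after sißCat-WT (87.5%, 37.5% and 37.5% called, the share after sißCat-mut again near the background). Of the 2 that rose after sißCat-both, 1 had group means of 2.93 to 3.16, near the array floor. Its arrays overlapped those of siCtrl, so that call is uncertain. The muscle-type glycogen synthase GYS1 changed by -0.73 ± 0.11 after sißCat-both, -0.47 ± 0.11 after sißCat-mut and -0.49 ± 0.11 after sißCat-WT (adjusted p = 0.000183, 0.00655 and 0.0135), a call that ended after sißCat-WT without siCtrl replicate 2 or sißCat-WT replicate 2. PGM2 changed by -1.04 ± 0.09 after sißCat-mut and -0.91 ± 0.09 after sißCat-both (limma adjusted p = 2.4e-06 and 4.12e-06). GYG2 changed by -0.43 ± 0.07, 0.34 ± 0.07 and 0.45 ± 0.07 after sißCat-WT, sißCat-mut and sißCat-both (adjusted p = 0.00199, 0.00333 and 0.000246).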

How the data were processed

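For 53617 probe sets on 12 Affymetrix arrays the authors deposited log2 intensities. The submitters' processing notes name RMA and, as software, Affymetrix Expression Console 1.1. The arrays were hybridised with biotin-labelled cDNA of total RNA, per the labels' protocols. RMA corrects the background and makes the arrays' distributions equal, so it takes away any change that most genes have in common. Library files and genome build were not given in the sources used here. The log2 scale was inferred from the range of the values. Genes were not centred.

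A platform annotation table gave 16098 probe sets 1 gene symbol and 0 several, and 37519 were not listed. The probe set with the highest mean was used for the 779 genes with several, which left 14884 genes, with no filter on dim genes. All 24 measured members matched the RefSeq gene table. Group means of all 12 arrays were fitted with limma 3.58.1 (R 4.3.3, lmFit and eBayes, 8 residual degrees of freedom), with two-sided tests and Benjamini-Hochberg adjustment over all genes within each of 7 contrasts. The threshold for a call was an adjusted p under 0.05, and "fell" and "rose" are used for called genes. Each change is a difference of 2 group means on the log2 scale, given with its standard error from limma. The steps were tested on simulated data, for sißCat-mut against siCtrl only. Log2 changes of 0.5 were recovered in 61.2% of cases, those of 1 in 98.5% and those of 2 in 100%. Of 179 simulated calls 6 were false. A small change that did not pass may therefore have been missed, and the additivity contrast was not simulated. Sequences and pseudogene names are RefSeq's, on GRCh38.p14.

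The members, lists and tests were chosen with earlier results of these data known. Array values are given for HK2, LDHA, GAPDH and EPAS1 whatever their values, for the 12 members with the widest range of group means and for up to 3 members in each direction with the largest changes among those called without overlap in 4 contrasts. Of each related list at most the 3 largest called changes are named. Replicate numbers are shared between groups. Deviations of same-numbered arrays from their group means correlated weakly, at 0.115, 0.155 and 0.134 for sißCat-both against sißCat-WT. Another comparison reached 0.189 (sißCat-WT against siCtrl, replicate 3). Differently numbered arrays were not set against each other, so this check cannot say whether the numbers pair any arrays. Alternatives were median centring, quantile normalization applied again, a filter under the 40th percentile, the mean of probe sets, priors that were trended or robust, a fit of the compared groups alone, the replicate block, array weights, and leaving out arrays. Python 3.11.15 and matplotlib 3.10.9 drew the figures.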

Additional observations from a re-analysis of the deposited data

Results flagged for a closer look

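For 7 genes the level after sißCat-both differed from the sum of the changes after the single knockdowns in limma's test of that difference. The departures on the log2 scale were -1.15 for HK2, -1.05 for ERO1A, -0.71 for PGAM1, -0.67 for BNIP3L, -0.59 for ADM, -0.56 for VEGFA and -0.41 for EPAS1. For all 7 the level after sißCat-both lay below the sum. ERO1A, PGAM1, BNIP3L and ADM did not pass the test in either single knockdown against siCtrl. HK2 and EPAS1 passed after sißCat-mut and VEGFA after sißCat-WT. Groups of 3 arrays are too small for a test of single outlying arrays.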

How the results depend on the processing

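Over 22 alternative settings, 3506 of 3644 log2 changes of members stayed on their side of the threshold, 78 fell short of it, 60 came past it and 0 turned round with a call. Of 2548 such values of the 29 named genes outside the list, 63 fell short, 35 came past it and 0 turned round. The number of members called after sißCat-both against siCtrl was 18, with 14 to 20 when single arrays were left out and 17 to 19 under the other settings. For sißCat-mut against siCtrl it was 9, with 7 to 10 and 9 to 11. For sißCat-WT against siCtrl it was 4, with 1 to 5 when single arrays were left out (1 without sißCat-WT replicate 2, and 2 without siCtrl replicate 1 or 2) and 4 to 5 otherwise. In those named fits 6.16%, 6.81% and 6.38% of all genes were called, against 10.2% with all arrays. The number of members called was 9 for sißCat-mut against sißCat-WT (6 to 9 and 7 to 9), 16 for sißCat-both against sißCat-WT (13 to 16 and 15 to 17) and 13 for sißCat-both against sißCat-mut (13 to 15 in both). For additivity it was 7, with 5 to 8 when single arrays were left out. It was 12 without dim genes, where fewer genes were tested and 30.0% of those 8930 were called. It was 11 with the replicate number as a block, where 17.5% of all genes were called and the cause was not tested. In the main fit 16.4% of all genes were called. Among the members added, MXI1 in both settings and BNIP3 without dim genes were called higher. The replicate block left the count of sißCat-both against sißCat-WT at 16 and changed no call of a member there. Elsewhere the counts with the block were 5 for sißCat-WT (GPI passed), 9 for sißCat-mut, 19 for sißCat-both (EGLN3 passed), 9 for sißCat-mut against sißCat-WT and 14 for sißCat-both against sißCat-mut (NDRG1 passed). Where single arrays ended a call, the alternative had fewer arrays. Additivity needs all 4 groups, so it has no fit on part of the groups. HK1 and LDHB lay below the median of all probe sets and EGLN3 beside it, where the array limits what can be seen.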
